A study of Mus musculus with 12 samples.

Results

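The mRNAs of 10 carboxylesterases, Ces1b, Ces1c, Ces1d, Ces1e, Ces1f, Ces1g, Ces2a, Ces2e, Ces3a, and Ces3b, were followed in mouse liver that lacked or retained lipin 1. They are the 10 rows of the deposited expression matrix with these symbols, out of 22456 gene rows and out of 20 rows named as carboxylesterases. RNA-Seq was run on liver from 12 male BALB/cByJ mice aged 2 to 8 months, of which 3 mice represented each combination of genotype (Lpin1+/+ or Lpin1-/-) and feeding state (fasted or refed). Fasted mice went 16 hours without food and their liver was collected at hour 9, while refed mice had the same fast followed by 5 hours of food, with collection at hour 14, so feeding and time of day cannot be told apart. Lpin1-/- mice are fatty liver dystrophy (fld) mice, which lack lipin 1 in every tissue, and the Lpin1+/+ mice are their wild-type littermates.

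Carboxylesterases are serine hydrolases that cut ester bonds in lipids, drugs, and other xenobiotics. Most of them reside in the lumen of the endoplasmic reticulum of hepatocytes, held there by a retrieval signal at the end of the protein, and some leave the cell for plasma. Ces1d, also called triacylglycerol hydrolase, releases stored triacylglycerol for assembly into very low density lipoprotein (VLDL), and Ces1c is the major carboxylesterase of mouse plasma. Lipin 1 makes diacylglycerol, the precursor of triacylglycerol, and also acts in the nucleus as a coactivator of lipid genes.

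The 10 genes lie in 2 stretches of chromosome 8 on GRCm38 (GENCODE M21). All 6 Ces1 genes are on the minus strand and the 4 Ces2 and Ces3 genes are on the plus strand. The last 30 coding bases of the longest coding transcript of each gene are shown because this end of the protein carries the retrieval signal in most members, with the last 4 codons before the stop in capitals.
Ces1b, chr8:93056728-93080017: gaccctactgagcacAGAGAACACAAAtga
Ces1c, chr8:93099015-93131283: gaccctactgaacacACAGAACACAAAtga
Ces1d, chr8:93166068-93197838: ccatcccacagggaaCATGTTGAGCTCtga
Ces1e, chr8:93201218-93229619: caactgccgacagaaCACACTGAGCTGtga
Ces1f, chr8:93256236-93279747: caaccccagccatacCACAATGAGCTGtga
Ces1g, chr8:93302369-93337308: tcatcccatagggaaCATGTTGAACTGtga
Ces2a, chr8:104734003-104741634: ggttctcaggacaagCATGCAGAGCTGtag
Ces2e, chr8:104926260-104934672: gggtctcaggagaggCACAAAGAGTTGtag
Ces3a, chr8:105048601-105058413: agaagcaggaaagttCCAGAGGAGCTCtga
Ces3b, chr8:105083753-105093929: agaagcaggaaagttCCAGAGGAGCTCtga
Ces3a and Ces3b shared all 30 of these bases, and Ces1b and Ces1c shared their last 3 codons, which were found in none of the other 8. Coding sequences were 95.3% identical between Ces3a and Ces3b and 89.6% between Ces1b and Ces1c, and each other member was under 85% identical to its nearest relative. Of all 69-base stretches (the length of a read), 20.4% in Ces3a and 17.3% in Ces3b also occur in another gene, most often each other. The share was 5.43% in Ces1b, 8.30% in Ces1c, and 12.7% in Ces2a, whose closest match is Gm7208, and at most 1.35% in the other 5. Levels of the 5 genes with the larger shares are therefore less certain.

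Lpin1 itself was listed at 0.726, 1.76, and 22.0 RPKM (reads normalized to gene length and library size) in fasted Lpin1+/+ liver and at 0.784, 2.76, and 2.92 RPKM in refed Lpin1+/+ liver. No Lpin1-/- library exceeded 0.0597 RPKM. Summed hepatocyte markers lay between 32347 and 72667 RPKM in every library, against at most 0.115 RPKM for kidney tubule markers. Exocrine pancreas markers summed to 6.12 to 40.3 RPKM, mostly Cela1. Intestinal epithelium markers summed to 68.7 to 865 RPKM, nearly all Fabp2. The intestinal sums were lower in every refed Lpin1-/- liver (68.7 to 173 RPKM) than in any refed Lpin1+/+ liver (461 to 570 RPKM). In 3 libraries over 10% of tested genes lay more than 2-fold from the mean of the other members of the group: fasted Lpin1+/+ 1 (15.3%), fasted Lpin1-/- 1 (10.9%), and refed Lpin1+/+ 2 (10.6%). The summed level of 6 cholangiocyte markers was also high in both of the latter, at 457 and 104 RPKM against 19.6 to 57.6 RPKM in the other 10 libraries. Spp1 alone gave 430 and 96.1 RPKM of these sums. Summed Kupffer cell markers were highest in these same libraries (567 and 492 RPKM, against 63.9 to 290.2 RPKM elsewhere). Stellate cell marker sums were higher in every fasted Lpin1-/- liver (287 to 428 RPKM) than in any fasted Lpin1+/+ liver (100.3 to 255 RPKM). Of these markers only Dcn was itself separated (179 to 264 against 61.8 to 144 RPKM), and Lrat, Reln, Rgs5, Col1a1, and Ecm1 overlapped. Cholangiocyte marker sums were higher in every refed Lpin1+/+ liver (32.3 to 104 RPKM) than in any refed Lpin1-/- liver (19.6 to 28.4 RPKM). Most of each sum was Spp1 (27.1 to 96.1 against 15.8 to 25.1 RPKM). Krt19 was also separated, whereas Krt7, Epcam, Sox9, and Cldn7 overlapped. The Kupffer cell, stellate cell, and cholangiocyte lists had 6 markers each, none of them at 0 in a whole group. Of 6 hepatocyte markers 5 had values. Some kidney tubule, exocrine pancreas, and intestinal markers were at 0 in a whole group. The part of the markers in the Ces values was not tested. Fewer cells of a type and less RNA per cell cannot be told apart in whole liver.

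The summed level of the 10 carboxylesterases was 3260 ± 121 RPKM in fasted Lpin1+/+ liver, 3932 ± 538 in fasted Lpin1-/- liver, 2460 ± 895 in refed Lpin1+/+ liver, and 2771 ± 231 in refed Lpin1-/- liver (SD, n = 3 each). Per library it ranged from 1869 RPKM in refed Lpin1+/+ 2 to 4248 RPKM in fasted Lpin1-/- 2. As a share of all RPKM it ranged from 0.251% in refed Lpin1+/+ 2 to 0.579% in fasted Lpin1-/- 3. Ces1c and Ces3a were the most abundant in every group by mean level and Ces1g or Ces1e the least.

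**Figure D1:**
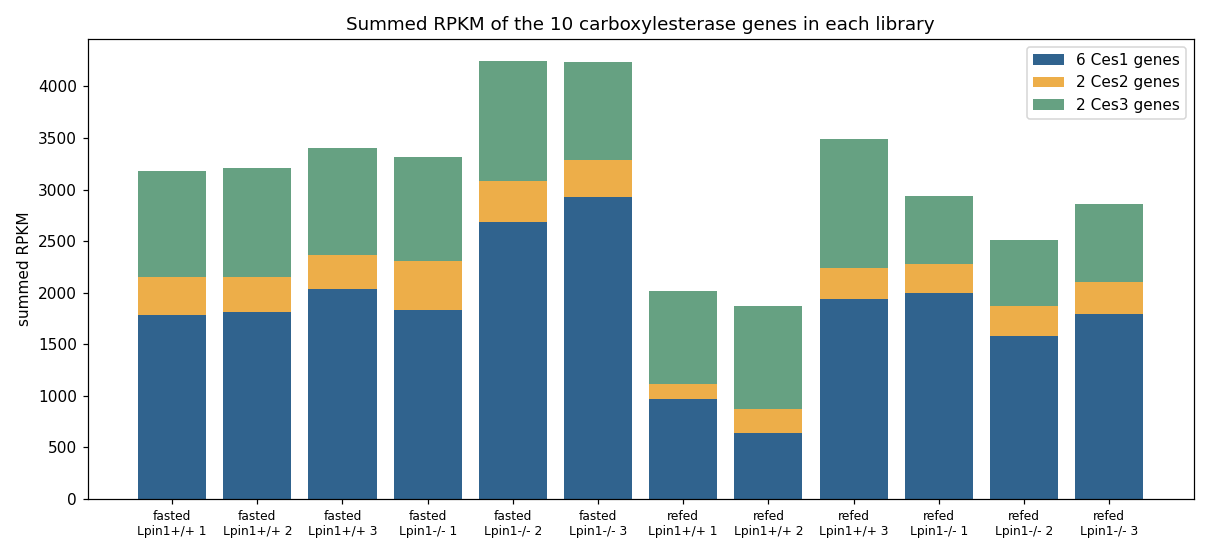
Summed RPKM of the 6 Ces1, 2 Ces2, and 2 Ces3 genes in each of the 12 libraries (stacked bars from 0). The bars range from 1869 to 4248 RPKM, and the lowest pair are refed Lpin1+/+ 1 and 2.

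The genes were ordered by mean level within each group. In fasted Lpin1+/+ liver Ces1c (981 ± 114 RPKM) and Ces3a (878 ± 33.9) overlapped each other and stood apart from Ces1d (341 ± 101), after which neighbours overlapped down to Ces3b (159 ± 22.7), and Ces1e, Ces2e, and Ces1g came last at 78.6, 76.7, and 52.4 RPKM. Refed Lpin1+/+ liver had Ces3a first (885 ± 203 RPKM), with every neighbour overlapping. In refed Lpin1-/- liver Ces1c (1023 ± 62.0), Ces3a (582 ± 51.4), and Ces1d (375 ± 116) did not overlap their neighbours. The other 10 carboxylesterase genes in the file were low. Only Ces2g (mean 15.8 RPKM over 12 libraries), Ces2c (5.88), and Ces4a (1.09) reached the mean of 0.5 RPKM required for testing, and Ces5a was listed at 0 in 9 libraries.

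**Figure D2:**
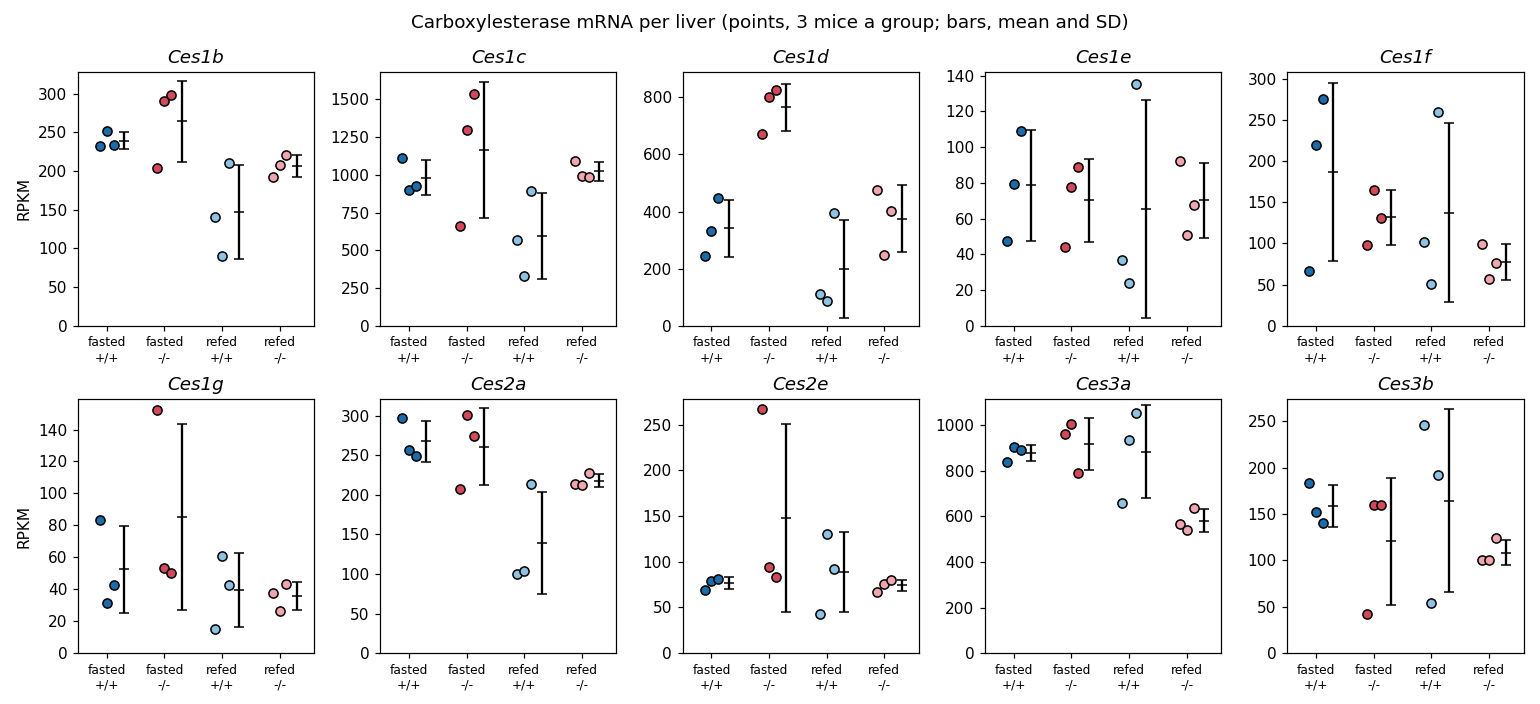
RPKM of each of the 10 carboxylesterase genes in the 4 groups (points, single mice; bars, mean and SD, n = 3; all axes start at 0). Ces1d in fasted Lpin1-/- liver lies at 672 to 825 RPKM, above every fasted Lpin1+/+ liver, while Ces1e and Ces1f overlap between all groups.

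To determine whether loss of lipin 1 altered carboxylesterase mRNA in the fasted state, Lpin1-/- and Lpin1+/+ fasted livers were compared. Ces1d was 245, 331, and 446 RPKM in Lpin1+/+ and 672, 801, and 825 RPKM in Lpin1-/- liver. Each Lpin1-/- value was above all Lpin1+/+ values, and the difference was 1.202 ± 0.48 (SE) on the log2(RPKM + 1) scale, a fold of 2.30, with an adjusted p of 0.105 (limma, Benjamini-Hochberg over 11507 genes). None of the 10 genes passed the threshold of 0.05 in this limma fit, where 18.8% of all tested genes did. An unadjusted p under 0.05 was found for 1 member (Ces1d), and for 3802 of the 11507 genes tested. When only the 6 fasted libraries were fitted, Ces1d passed (adjusted p = 0.0446), and it also passed when refed Lpin1+/+ 3 was left out (adjusted p = 0.0190).

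Ces2e, a Ces2 enzyme of the endoplasmic reticulum, was the only other gene with separated groups, at 69.4, 79.2, and 81.6 RPKM in Lpin1+/+ and 267, 94.6, and 83.2 RPKM in Lpin1-/- liver. The highest value came from fasted Lpin1-/- 1, and the difference was 0.74 ± 0.44 (adjusted p = 0.273), or 0.21 without this library. Separation was therefore seen for 2 of 10 members, against 32.9% of all tested genes. The same library was high for Ces1g (152 RPKM against 53.1 and 50.4) and low for Ces3b (41.8 against 160 and 160). Its cholangiocyte and Kupffer cell marker levels were the highest of all. The differences were 0.62 ± 0.55 for Ces1g and -0.62 ± 0.57 for Ces3b, and without fasted Lpin1-/- 1 they were 0.10 and 0.02. Those of the remaining 6 members lay between -0.31 (Ces1f) and 0.17 (Ces1c), with 95% intervals reaching at least from -0.42 to 0.54.

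In refed liver the question was the same. Ces1c was 565, 329, and 892 RPKM in Lpin1+/+ and 1094, 991, and 982 RPKM in Lpin1-/- liver, so all Lpin1-/- values were higher, with a difference of 0.89 ± 0.37 (adjusted p = 0.186). Ces3a showed the opposite order, with 661, 938, and 1056 RPKM in Lpin1+/+ and 567, 539, and 639 RPKM in Lpin1-/- liver and a difference of -0.58 ± 0.22 (adjusted p = 0.142). Ces2a, which hydrolyzes acylglycerols and drugs, was 100, 104, and 213 RPKM against 214, 212, and 228 RPKM. The groups of Ces2a overlapped, with the highest Lpin1+/+ value at 213 and the lowest Lpin1-/- value at 212 RPKM, and the difference was 0.73 ± 0.27 (adjusted p = 0.132). Ces1d was 110, 87.7, and 396 RPKM in Lpin1+/+ and 476, 248, and 402 RPKM in Lpin1-/- liver, a difference of 1.204 ± 0.48 (adjusted p = 0.163). Ces1c, Ces1d, and Ces2a were higher in the Lpin1-/- library of each of the 3 same-numbered pairs, and Ces3a was lower in each. A fit of the 6 refed libraries with the replicate number as a block, added after the data were seen, left all 4 short of the threshold (adjusted p = 0.146 to 0.220).

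None of the 10 genes passed the threshold in refed liver by limma, while 6.67% of all genes did. These 4 genes had an unadjusted p under 0.05, as did 2585 of the 11507 genes tested. Groups did not overlap for 2 of 10 members, against 33.9% of all genes. Refed Lpin1+/+ 3 was the highest of its group for 7 of the 10 genes, and without it Ces1d (1.87, adjusted p = 0.0200) and Ces2a (1.08, adjusted p = 0.0277) passed. With the 3 libraries that stood apart removed, Ces3b passed at -1.003 (adjusted p = 0.00752).

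**Figure D3:**
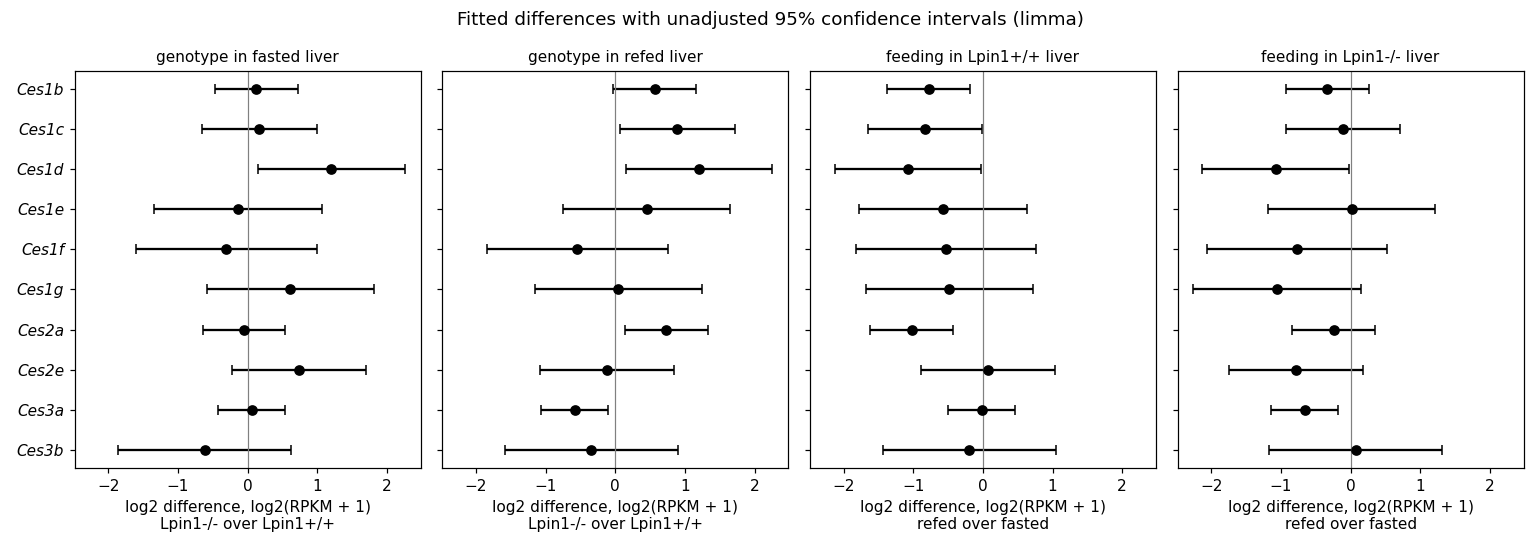
Fitted differences on the log2(RPKM + 1) scale for the 10 genes in 4 comparisons (points, limma estimate; bars, unadjusted 95% confidence interval; vertical line, 0). Ces1d lies at 1.202 and 1.204 in the genotype comparisons and near -1.07 in both feeding comparisons, and the intervals of most other genes cross 0.

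Refeeding was then compared with fasting within each genotype. In Lpin1+/+ liver Ces2a went from 297, 256, and 250 RPKM when fasted to 100, 104, and 213 RPKM when refed, with all refed values lower and a difference of -1.02 ± 0.27 (adjusted p = 0.0969). Ces1b (-0.78 ± 0.27, adjusted p = 0.220) and Ces1c (-0.83 ± 0.37, adjusted p = 0.356) were likewise lower in every refed than in every fasted liver. None of the 10 genes passed by limma, where 1.72% of all genes did. Ces1b, Ces1c, Ces1d, and Ces2a had an unadjusted p under 0.05, as did 1594 of the 11507 genes tested. Groups were separated for 3 of 10 members against 18.1% of all genes. Ces2a passed only without refed Lpin1+/+ 3 (-1.37, adjusted p = 0.0408).

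In Lpin1-/- liver Ces3a went from 961, 1007, and 791 RPKM to 567, 539, and 639 RPKM, a difference of -0.66 ± 0.22 (adjusted p = 0.0549). Ces1d (-1.07 ± 0.48, adjusted p = 0.133), Ces1g (-1.06 ± 0.55, adjusted p = 0.188), and Ces2e (-0.79 ± 0.44, adjusted p = 0.219) were also lower in every refed liver. Without fasted Lpin1-/- 1 these were -0.54 for Ces1g and -0.26 for Ces2e. Separation was found for 4 of 10 members against 46.8% of all genes. No member passed by limma, while 20.7% of all genes did. Ces1d and Ces3a had an unadjusted p under 0.05, as did 4150 of the 11507 genes tested. Ces3a passed when the minimum mean was 5 RPKM (adjusted p = 0.0465) and without fasted Lpin1+/+ 1 or refed Lpin1+/+ 1 (adjusted p = 0.0440 and 0.0467), and Ces1d passed when only the 6 Lpin1-/- libraries were fitted (adjusted p = 0.0352) or without refed Lpin1+/+ 3 (adjusted p = 0.0289).

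Whether the feeding response differed by genotype was tested with an interaction term. None of the 10 genes passed by limma, where 1.28% of all genes did. None had an unadjusted p under 0.05, whereas 2082 of the 11507 genes tested did. The smallest p-values were those of Ces3a (-0.64 ± 0.31, adjusted p = 0.307) and Ces2a (0.78 ± 0.38, adjusted p = 0.310). For Ces1d the interaction was 0.00 with a 95% interval from -1.49 to 1.49. The median difference of the 10 genes was -0.55 for refeeding in Lpin1+/+ and -0.49 in Lpin1-/- liver, against 0.19 and 0.25 over all tested genes. These comparisons share no library, but may not be independent. Same-numbered libraries of fasted Lpin1+/+ and refed Lpin1-/- liver deviated together from their group means (correlations of 0.390 to 0.743). In Lpin1+/+ liver the median of the 10 genes was -1.11 without refed Lpin1+/+ 3 and -0.37 without refed Lpin1+/+ 2. By genotype the medians were 0.09 fasted and 0.25 refed, against -0.14 and -0.07 over all genes. The fasted median was -0.02 without fasted Lpin1-/- 3 and 0.02 without fasted Lpin1-/- 2. The refed median was 0.53 without refed Lpin1+/+ 3, 0.40 without refed Lpin1-/- 2, 0.16 without refed Lpin1+/+ 1, and 0.11 without refed Lpin1-/- 1. Rescaling each library by the median ratio moved the feeding medians of all genes to -0.00039 in Lpin1+/+ and 0.06 in Lpin1-/- liver, and those of the 10 genes to -0.79 and -0.75.

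Other genes around the family were examined by the same fit. Of 22 other lipid and ester hydrolases tested, 8 passed in fasted liver by genotype, beside 18.8% of all genes. Pnpla2, the cytosolic triacylglycerol lipase ATGL, was higher (a log2 difference of 2.30), and Mgll, Cmbl, Lipa, Siae, Bphl, Ddhd2, and Lypla2 were lower. By the same measure 4 of 11 VLDL assembly genes (Apob, Mttp, Cideb, and Plin2) and 4 of 12 regulators (Nr1h4, Nr1i3, Nfe2l2, and Nr1h3) were lower. In refed liver 3 of 22 hydrolases, 2 of 11 VLDL genes, and 1 of 12 regulators passed, beside 6.67% of all genes. Pnpla2 was again higher (a log2 difference of 2.06). Kdelr1, a receptor that returns proteins to the endoplasmic reticulum, was lower in fasted Lpin1-/- liver (-0.56, adjusted p = 0.0373), and Kdelr2, the only other KDEL receptor gene tested, had a difference of 0.08 (adjusted p = 0.822). The gene most like Ces1c over the 12 libraries was N4bp2l1 (Pearson r = 0.96) and the next was Alb (r = 0.92). Ces1g was most like Gsta2 (r = 0.90) and Ces1d most like Upp2 (r = 0.89), where all libraries contribute to r. The best match of every member had an r between 0.88 (Ces1f with Rgn) and 0.96. Each best match was picked as the highest r among many genes. How high the best r of an unrelated gene would be was not tested, so these values do not show a relation.

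Exon use was examined in the same genes. For each exon that can be included or skipped, the deposited counts of both forms were compared between genotypes as a log2 ratio of inclusion to skipping, normalized for length. In fasted liver 18 of 204 exon events in the 10 genes passed, against 11.3% of all events tested, and in refed liver 6 of 189 passed, against 0.97% of all events. Events overlap one another, so the 18 lie in 9 exon regions of Ces1d, Ces1f, Ces2a, Ces3a, and Ces3b and the 6 in 5 regions of Ces1d, Ces1f, and Ces1g. When each library was left out in turn, 11 of the 18 fasted events passed every time. None of the 6 refed events passed without any single library (limma, with 29 to 45 of 189 member events at an unadjusted p under 0.05). Over all genes 0 to 15 events passed in these refed fits, and 7568 to 8941 had an unadjusted p under 0.05. The loss of refed calls was therefore not particular to the 10 genes.

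The direction of these events was then compared by which form was the rarer. The rarer of the 2 forms was lower in Lpin1-/- liver in 14 of the 18 fasted events and 6 of the 6 refed events. Over all genes an event passed with the rarer form lower in 0.685% of fasted and 0.0767% of refed events, which is 6.04% and 7.90% of the events that passed. Among all events tested, passed or not, the rarer form was lower in 56.9% of member events and 24.8% of all events in fasted liver. In refed liver these were 58.2% and 40.0%. The difference between members and all genes was not tested, and 6 of the 14 fasted events are the same exon of Ces3a with different ends and the same skipping counts. Called Ces1f events also overlapped with shared skipping counts in both states. The exception in direction was Ces2a, in which the rarer form was higher in fasted Lpin1-/- liver.

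Sequences of an exon from each of the 3 genes with the most called events are shown because the rarer forms differ by their presence. They are transcript bases of GENCODE M21 on GRCm38, 5′ to 3′.
Ces1f, 74 bases, chr8:93276556-93276629, minus strand: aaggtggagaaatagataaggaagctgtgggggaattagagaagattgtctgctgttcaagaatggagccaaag
Ces3a, exon 5 of 13, chr8:105051468-105051621, plus strand: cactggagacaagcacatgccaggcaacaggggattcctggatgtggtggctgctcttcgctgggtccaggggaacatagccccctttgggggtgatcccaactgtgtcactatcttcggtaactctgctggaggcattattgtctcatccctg
Ces2a, exon 8 of 12, chr8:104739290-104739370, plus strand: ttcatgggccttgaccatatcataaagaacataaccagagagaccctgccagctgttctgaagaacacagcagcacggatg
The Ces1f exon is annotated only in a 4-exon transcript classed as a target of nonsense-mediated decay, in which it is exon 2 and the first in-frame stop lies in exon 3. Neither it nor Ces3a exon 5 is a multiple of 3 in length, whereas the 81 bases of Ces2a exon 8 are. These exons and those that follow were chosen after their values were seen.

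For the 74-base exon of Ces1f, inclusion was supported by 7, 117, and 161 counts in fasted Lpin1+/+ liver and 0, 2, and 1 counts in fasted Lpin1-/- liver, listed in the order of the table, beside 900, 1847, and 2638 and 473, 1524, and 1571 skipping counts. Its share was 2.05% ± 1.46 and 0.0311% ± 0.0314 (SD, n = 3 each), a log2 ratio difference of -4.75 ± 0.91 (limma adjusted p = 0.00541). In refed liver the counts were 112, 60, and 151 against 2, 5, and 8, with shares of 4.56% ± 1.81 and 0.282% ± 0.196 and a difference of -4.23 ± 0.80 (adjusted p = 0.0423). Lpin1+/+ and Lpin1-/- values did not overlap in either state. With each library left out in turn the adjusted p ranged from 0.00936 to 0.0449 in fasted and from 0.109 to 0.176 in refed liver. A second Ces1f exon, of 87 bases (chr8:93272151-93272237) and without an annotated counterpart, had 6, 21, and 69 counts in fasted Lpin1+/+ liver and 0 in each fasted Lpin1-/- liver, where 0 of 3854 allows up to 0.0778% of counts, not normalized for length. It passed in fasted (-4.90, adjusted p = 0.00361) and in refed liver (-4.05, adjusted p = 0.0414), where leaving out a library gave adjusted p-values of 0.0885 to 0.171. These limits cover counting error only.

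Skipping of Ces3a exon 5 was seen in 61, 208, and 102 counts in fasted Lpin1+/+ liver and 5, 2, and 1 counts in fasted Lpin1-/- liver. The share without the exon was 1.59% ± 1.15 and 0.0373% ± 0.0364, and the difference was 5.30 ± 0.92 toward inclusion (adjusted p = 0.00334). In refed liver the counts were 226, 225, and 290 against 18, 62, and 51, with shares of 3.00% ± 0.90 and 0.669% ± 0.385, and the difference of 2.37 ± 0.72 did not pass (adjusted p = 0.161). No Lpin1-/- value reached an Lpin1+/+ value in either state. Another stretch of Ces3a, chr8:105050037-105050077, was skipped in 35, 35, and 25 against 1, 1, and 0 counts in fasted liver (adjusted p = 0.00374).

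**Figure D4:**
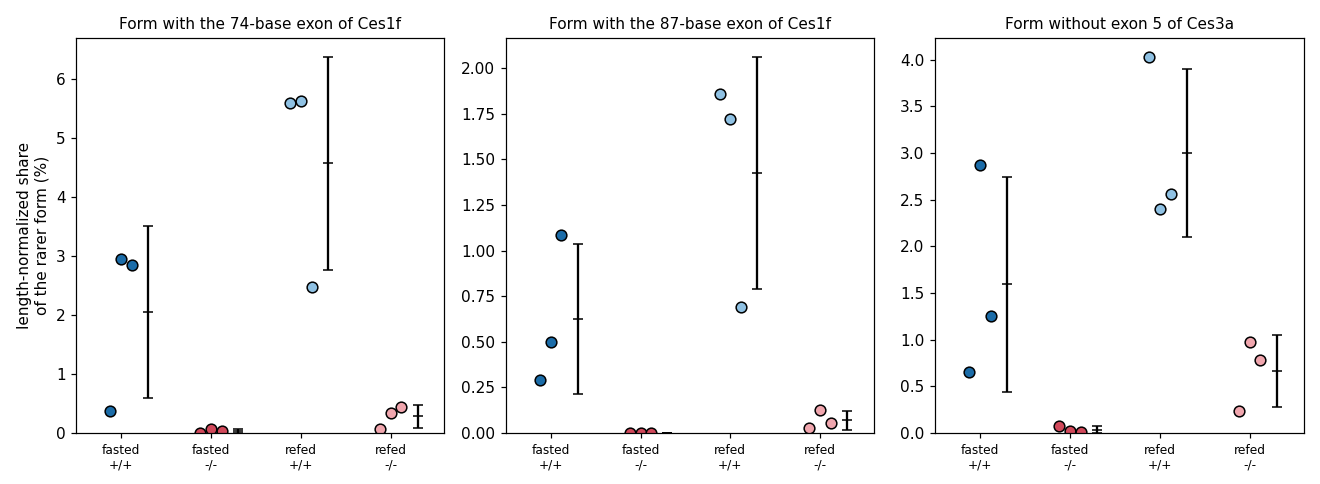
Length-normalized share, in percent, of the form with the 74-base or 87-base exon of Ces1f or without exon 5 of Ces3a in the 4 groups (points, single mice; bars, mean and SD, n = 3). The Lpin1-/- points lie below all Lpin1+/+ points of the same feeding state, at no more than 0.980% in any panel.

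Ces2a went the other way in fasted liver. Skipping of exon 8 had no count in the 3 Lpin1+/+ livers and 5, 23, and 6 counts in Lpin1-/- liver, with a difference of -4.25 ± 0.83 (limma adjusted p = 0.00616). The 0 of 16038 in Lpin1+/+ liver allows up to 0.0187% of counts, against 0.212% of counts in Lpin1-/- liver, neither normalized for length. Exon 9 (chr8:104739607-104739751) was skipped in 0, 0, and 4 against 11, 33, and 23 counts (adjusted p = 0.0160, and 0.0128 to 0.0913 with a library left out). Single events passed in Ces1d and Ces3b when fasted (limma adjusted p = 0.0485 and 0.0342) and in Ces1d and Ces1g when refed (adjusted p = 0.0312 and 0.0196). The Ces1d events were different exons, and neither passed in the other state (adjusted p = 0.210 refed and 0.287 fasted). With a library left out, the adjusted p of these events rose to as much as 0.208, 0.152, 0.129, and 0.101, in the same order. The Ces1g event had 5, 13, and 12 inclusion counts in Lpin1+/+ liver and 0 of 1165 counts in Lpin1-/- liver. That 0 allows up to 0.258% of counts, not normalized for length. No event passed in Ces1b, Ces1c, Ces1e, or Ces2e in either state by limma, where 0 to 6 events per gene and state had an unadjusted p under 0.05. Over all genes 18145 of 69644 fasted and 9301 of 65231 refed events had one.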

How the data were processed

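Liver RNA-Seq of 12 mice was analyzed. Per the labels and methods, the authors aligned 69-base paired reads with HISAT2 (2.0.5) to GRCm38, counted them with HTSeq (0.6.0), and deposited RPKM. For exon events they deposited rMATS inclusion and skipping counts, whose p-values and FDR are the authors' own and were not used. Libraries of a group are listed there without replicate numbers. No header says which list is which genotype, and this was settled from counts that recur in the table comparing feeding in Lpin1+/+ liver.

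RPKM was tested as log2(RPKM + 1) with limma (3.58.1, R 4.3.3), a variance trend, and 1 fit of the 4 groups, over the 11507 genes averaging 0.5 RPKM or more, with Benjamini-Hochberg adjustment and a threshold of 0.05. RPKM holds no absolute depth, and relative depths differed by up to 1.34-fold. Events whose counts reached 10 in each of the 6 libraries of a state were tested by limma on log2 inclusion to skipping with 0.5 added. Both tests were tested on simulated data. For genotype in fasted liver the expression fit recovered 37 of 100 genes changed by 1 log2 unit. It recovered 74 of 100 changed by 2, with 4 false calls. A gene that did not pass may therefore still have changed. The event test recovered most changes when many well-counted events changed and few when few changed amid a wider spread, and in the former its false calls exceeded the nominal rate, so event calls near the threshold are weak. The wider simulation was run first, and both were kept. The members and lists were chosen with earlier results of these data known, all 10 members are named by rule, and exon examples were picked from their values. Deviations of same-numbered libraries from their group means correlated above 0.1 in all 3 pairs of refed liver (0.162 to 0.297). They also did in all 3 pairs of fasted Lpin1+/+ with refed Lpin1-/- liver (0.390 to 0.743), which share neither genotype nor feeding state. The labels name no shared litter or day, so whether the numbers pair any libraries was not settled. Alternatives were another pseudocount, filters, rescaling, a replicate block, and leaving out libraries. Coding identity was aligned with Biopython 1.88, and tables and figures were made with pandas 2.3.3 and matplotlib 3.10.9 in Python 3.11.15.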

Additional observations from a re-analysis of the deposited data

How the results depend on the processing

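No member passed in any comparison of expression with a pseudocount of 0.1, without a filter, after rescaling, or with a replicate block (0 members called in each of the 5 comparisons). Within refed liver a block in the 6 refed libraries alone also called 0 members (limma, 3 at an unadjusted p under 0.05). That fit called 541 of all 11507 genes, and 3177 had an unadjusted p under 0.05. The block thus changed no call of a member. In the other 3 comparisons of groups, 0, 1, and 0 of 3 same-numbered pairs correlated above 0.1. Of the 10 members, 1 passed for genotype in fasted liver (Ces1d) and 1 for feeding in Lpin1-/- liver (Ces1d) when only the libraries compared were fitted, 1 for feeding in Lpin1-/- liver (Ces3a) with a minimum mean of 5 RPKM, and 1 for genotype in refed liver (Ces3b) without the 3 libraries that stood apart, an alternative chosen after seeing the data. Leaving out each library gave 0 to 1 members in fasted liver by genotype, 0 to 2 in refed liver, 0 to 1 for feeding in either genotype, and 0 for the interaction. The differences of Ces1d with only the libraries compared and of Ces3a with the higher filter equalled those of the main fit. That of Ces3b moved from -0.34 to -1.003 without the 3 libraries. Rescaling by the median ratio gave a summed level of 3417 RPKM in fasted Lpin1+/+ liver, and the other sums stayed within 1 SD. Over all genes, 198 passed for feeding in Lpin1+/+ liver, against 49 after rescaling, 93 with the block, 0 with only those libraries (limma, 1151 at an unadjusted p under 0.05), and 465 without the 3 libraries. For the interaction 147 passed, against 88 without a filter, 321 after rescaling, and 81 with the block. In fasted liver by genotype 2168 passed, against 1011 with only those libraries, and in refed liver 767, against 1292 without the 3 libraries. Single libraries left out gave 1037 to 2313 in fasted and 242 to 1046 in refed liver by genotype, 23 to 229 and 1122 to 3108 for feeding in Lpin1+/+ and Lpin1-/- liver, and 30 to 191 for the interaction.

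Differences of single genes that changed sign, none of which passed, were as follows. After rescaling they were 0.077 for Ces2a by genotype in fasted liver, -0.17 for Ces2e by feeding in Lpin1+/+ liver, -0.23 for Ces1e and -0.17 for Ces3b by feeding in Lpin1-/- liver, and -0.010 for the Ces1d interaction. Without the 3 libraries they were 0.18 for Ces2a, -0.0073 for Ces3a, and 0.13 for Ces3b in fasted liver by genotype, -0.057 for Ces1e and 0.22 for Ces2e in refed liver by genotype, -0.34 for Ces2e and 0.57 for Ces3b by feeding in Lpin1+/+ liver, -0.28 for Ces1e and -0.56 for Ces3b by feeding in Lpin1-/- liver, and -0.016 for Ces1b, -0.10 for Ces1c, -0.29 for Ces1d, 0.082 for Ces2e, and -1.13 for Ces3b for the interaction, which left 3 of 10 members positive in place of 6. Leaving out single libraries gave ranges for genotype in fasted liver of -0.073 to 0.53 (Ces1c), -0.46 to 0.16 (Ces1e), -0.93 to 0.086 (Ces1f), -0.16 to 0.11 (Ces2a), -0.0093 to 0.16 (Ces3a), and -0.94 to 0.019 (Ces3b). In refed liver the ranges were -0.057 to 1.17 (Ces1e), -1.10 to 0.071 (Ces1f), -0.52 to 0.45 (Ces1g), -0.57 to 0.22 (Ces2e), and -1.003 to 0.074 (Ces3b). For feeding in Lpin1+/+ liver they were -1.15 to 0.027 (Ces1f), -0.89 to 0.080 (Ces1g), -0.27 to 0.51 (Ces2e), -0.16 to 0.18 (Ces3a), and -0.62 to 0.46 (Ces3b), in Lpin1-/- liver -0.47 to 0.14 (Ces1c), -0.28 to 0.23 (Ces1e), and -0.56 to 0.39 (Ces3b), and for the interaction -0.41 to 0.67 (Ces1d), -0.79 to 0.38 (Ces1f), and -0.39 to 0.69 (Ces3b). The cause was not tested.

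Of the 18 fasted exon events, 11 passed whichever library was left out. In these fits 11 to 16 of 204 member events passed, against 5.47% to 13.5% of all events. None of the 6 refed events did, and the refed count was 0 without any single library (limma, 29 to 45 member events at an unadjusted p under 0.05), which leaves 5 libraries to set the spread. Over all genes 0 to 15 refed events passed in the same fits. With 1 added to each count 10 of 189 refed member events passed, against 2.05% of all events. Another filter kept events whose rarer form averaged 5 counts or more. Under it 24 of 74 fasted member events passed, against 33.9% of all such events. In refed liver these were 12 of 87 and 7.48%. That filter was added once the data had been seen.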
